A study of Mus musculus with 34 samples.

Results

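The binding of AP-1 family members around the 8 Ccl chemokine genes Ccl2, Ccl7, Ccl12, Ccl5, Ccl9, Ccl6, Ccl3 and Ccl4 on mouse chromosome 11 was described from 30 lists of ChIP-seq peaks. A peak was taken when its midpoint lay in the body of one of these genes or within 20 kb of it (mm10), and each peak was counted once. This gave 876 of the 596383 peaks of all lists, which joined by overlap into 99 of 93024 loci. The lists come from thioglycollate elicited macrophages (TGEMs), cells recruited to the peritoneum by thioglycollate and then cultured. The C57Bl/6EiJ and Balb/cJ mice were 8-week-old males, and the age and sex of the PPARg knockout (PPARgKO) mice are not stated separately. Cells from C57Bl/6EiJ and Balb/cJ mice received vehicle (Veh, PBS) or, for 1 h, Kdo2-lipid A (KLA), a lipopolysaccharide core that stimulates the receptor TLR4. In C57Bl/6EiJ cells the antigens ATF3, cJun, JunD, Fos, Fra2, JunB, PU1 and CEBPa were profiled with both treatments and PPARg with Veh, in Balb/cJ cells ATF3, cJun, JunD, Fos and JunB with both treatments, and in cells of PPARgKO mice on the C57Bl6 background ATF3, cJun and JunD with Veh. The line that drives the PPARg deletion is not given in the sources used here. Each condition has 1 list, in which the authors had already combined replicate experiments, so no spread between replicates can be given and no test between conditions was made.

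Chemokines are small secreted proteins that draw leukocytes to a site of infection or injury, and macrophages that sense a bacterial product through TLR4 are a main source of them. Ccl2, Ccl7 and Ccl12 attract monocytes through the receptor Ccr2. Ccl3, Ccl4 and Ccl5 attract monocytes and lymphocytes, and Ccl6 and Ccl9 signal mainly through Ccr1. AP-1 is a dimer of Jun, Fos and ATF proteins that binds the TRE (TGACTCA) or the CRE (TGACGTCA). ATF3, cJun and JunD are present in resting macrophages, whereas Fos, Fra2 (the product of Fosl2) and JunB are induced by activation. PU.1 and C/EBP are lineage factors that open macrophage enhancers together with AP-1, and PPARg is a nuclear receptor of lipid metabolism that also binds many macrophage enhancers.

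The sequences below are the centres of 6 loci from RefSeq's GRCm38 (mm10) assembly, written on the strand of the named gene. Each is a start site, the most widely shared locus or the strongest locus of its gene group. Capitals mark exact matches on either strand to words for each factor. For AP-1 these were the TRE and the CRE, each as given above or with 1 base changed, the TRE variant being TGAGTAA. The CRE variant was TGATGTCA. For PU.1 the word was AGGAAGT, which on the other strand reads as its reverse complement. For C/EBP it was TTGCNNAA and for NF-kB GGGA and CC with 4 bases of any kind between. The 2 variant words were added after these sequences had been read. The first locus lies at -12754 bp from the Ccl2 start (chr11:82022718-82022917, + strand, intergenic) and was bound in more lists than any other locus of the Ccl2 window. The next is the centre, at -178 bp, of the locus that covers the Ccl2 start (chr11:82035294-82035493, + strand), and the third the centre, at -160 bp, of the locus that covers the Ccl12 start (chr11:82101586-82101785, + strand). Each of these stretches ends short of the start itself. The Ccl5 sequence ends at the last base before the Ccl5 start (chr11:83530519-83530709, - strand, locus centre at -91 bp) and belongs to a locus bound only after KLA. The Ccl6 locus at -11726 bp (chr11:83604714-83604913, - strand) lies in an intron of the noncoding transcript E230016K23Rik, and the last stretch, at -133 bp, is the centre of the locus that covers the Ccl4 start and ends short of that start (chr11:83662352-83662551, + strand).
Ccl2 -12754 bp: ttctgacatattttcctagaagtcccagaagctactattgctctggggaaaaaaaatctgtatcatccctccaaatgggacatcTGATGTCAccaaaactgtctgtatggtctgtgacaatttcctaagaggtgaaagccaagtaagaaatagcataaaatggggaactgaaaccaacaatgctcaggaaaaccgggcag
Ccl2 -178 bp: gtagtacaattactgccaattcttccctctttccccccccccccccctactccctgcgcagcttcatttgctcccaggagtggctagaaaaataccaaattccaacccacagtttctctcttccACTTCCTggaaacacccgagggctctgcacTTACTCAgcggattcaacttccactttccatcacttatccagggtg
Ccl12 -160 bp: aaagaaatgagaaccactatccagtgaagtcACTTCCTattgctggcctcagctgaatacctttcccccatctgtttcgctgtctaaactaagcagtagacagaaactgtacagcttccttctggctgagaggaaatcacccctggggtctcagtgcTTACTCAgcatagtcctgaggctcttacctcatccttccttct
Ccl5 -91 bp: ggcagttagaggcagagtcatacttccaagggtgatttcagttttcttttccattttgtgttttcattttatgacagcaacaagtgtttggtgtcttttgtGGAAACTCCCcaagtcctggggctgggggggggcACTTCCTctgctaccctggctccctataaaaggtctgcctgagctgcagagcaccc
Ccl6 -11726 bp: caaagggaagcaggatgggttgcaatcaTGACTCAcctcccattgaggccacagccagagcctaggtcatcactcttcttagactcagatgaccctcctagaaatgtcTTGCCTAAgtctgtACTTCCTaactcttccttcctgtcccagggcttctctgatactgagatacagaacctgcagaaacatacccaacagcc
Ccl4 -133 bp: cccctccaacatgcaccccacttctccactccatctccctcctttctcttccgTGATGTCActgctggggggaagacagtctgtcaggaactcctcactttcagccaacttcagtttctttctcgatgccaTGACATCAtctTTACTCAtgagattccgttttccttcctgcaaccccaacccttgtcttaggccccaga
The Ccl6 locus holds a full TRE beside PU.1 and C/EBP words, whereas the Ccl4 stretch holds 2 CRE variants and a TRE variant. The stretches at -178 bp of Ccl2 and -160 bp of Ccl12 each pair a PU.1 word with a TRE variant. The Ccl5 stretch shows an NF-kB word and a PU.1 word and none of the AP-1 words searched.

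The genes lie in 2 clusters. Ccl2 (82035571-82037453) and Ccl7 (82045712-82047525) lie next to each other and their windows join into 52.0 kb, which held 183 peaks in 20 loci. Ccl12 (82101845-82103400) lies further along, and its 41.6 kb held 34 peaks in 8 loci. Ccl5 (83525778-83530518), Ccl9 (83572919-83578636), Ccl6 (83587882-83593087), Ccl3 (83647844-83649355) and Ccl4 (83662584-83664683) lie more than a megabase away in windows of 162.0 kb, with 659 peaks in 71 loci. Scaled to length, the Ccl2-Ccl7 windows held 3.85 loci per 10 kb, the Ccl3-Ccl4-Ccl5-Ccl6-Ccl9 windows 4.39 and the Ccl12 window 1.93. Neighbouring windows overlap, so a locus can count for more than 1 gene: Ccl6 had 256 peaks, Ccl3 247, Ccl4 185, Ccl2 173, Ccl9 168, Ccl5 138, Ccl7 93 and Ccl12 34.

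**Figure D1:**
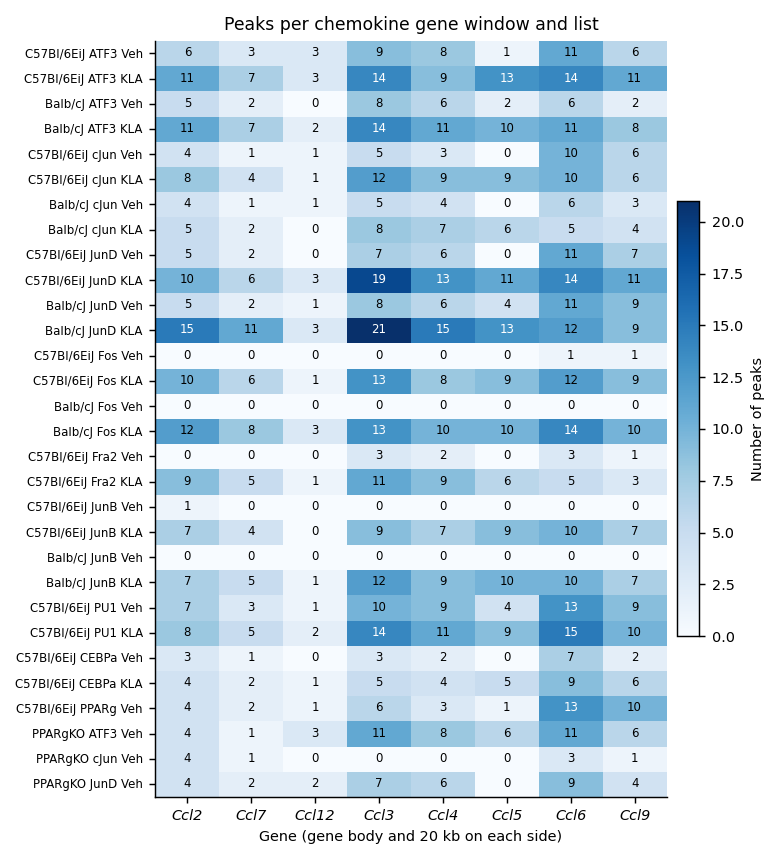
Number of peaks in the window of each gene (columns) in each of the 30 lists (rows), with the colour scale giving the same number. Ccl5 holds 0 or 1 peak in the Veh lists of ATF3, cJun and JunD of C57Bl/6EiJ and 9 to 13 in the KLA lists, whereas Ccl6 holds 10 or 11 in the former and 10 to 14 in the latter.

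In C57Bl/6EiJ cells 72 of the 99 loci carried a peak of at least 1 of the 6 AP-1 antibodies. Against all 21924 protein-coding genes of the annotation, for which the median was 0.207 AP-1 loci per 10 kb and the 99th percentile 2.23, 7 of the 8 chemokine genes lay above that percentile. Ccl3 was highest at 5.06, followed by Ccl4 at 3.56, Ccl2 at 3.34, Ccl6 at 3.32, Ccl5 at 3.13, Ccl9 at 2.41 and Ccl7 at 2.39. Ccl12 was lowest at 1.2. Loci shared by 20 or more of the lists made up 14 of the 99 (14.1%), compared with 6.89% of all loci, while loci found in a single list were as frequent as elsewhere, 26.3% compared with 27.3%. Of the 26 single-list loci, 7 (26.9%) were found with JunD in KLA-treated Balb/cJ cells and 4 (15.4%) with PU1 after KLA, beside 5.12% and 9.44% of all single-list loci.

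The list lengths limit some of these comparisons. The Veh lists of C57Bl/6EiJ held 23160 peaks for ATF3, 15548 for cJun and 19653 for JunD, but 1804 for Fos, 5329 for Fra2 and 463 for JunB. The KLA lists held 36745 peaks for ATF3, 17480 for cJun, 31640 for JunD, 24365 for Fos, 10619 for Fra2 and 13375 for JunB. The Balb/cJ Veh list of JunB held 9 peaks and that of Fos none. Peak counts, which the authors give as tags per peak, had medians of 277 in the JunD KLA list and 259 in the PU1 Veh list of C57Bl/6EiJ but of 18 to 76 in the others, so a count was not compared between lists. Instead each peak was placed by its percentile within its own list, from 0 for the weakest to 100 for the strongest. The exact 95% Poisson bounds of the count were placed in the same way, and a locus is called higher or lower only where the 2 intervals lie apart. A longer list adds weak peaks and so raises the percentile of those above them, and calls that change when both lists are cut to the length of the shorter and ranked again are named beside the result. These intervals and the binomial intervals of shares cover counting error only.

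KLA treatment was compared with Veh to ask how AP-1 binding around each gene differs on activation. With any AP-1 antibody in C57Bl/6EiJ cells, the Ccl2-Ccl7 windows had 6 loci in both treatments and 9 after KLA only (60.0%, exact 95% interval 32.3 to 83.7), and none in Veh only. The Ccl3-Ccl4-Ccl5-Ccl6-Ccl9 windows had 20 in both, 28 after KLA only (53.8%, 39.5 to 67.8) and 4 in Veh only. Among all 48864 AP-1 loci, 38% were found after KLA only and 12.9% in Veh only. The KLA lists are longer than the Veh lists. With the lists of each antibody cut to equal length, 6 of 12 and 17 of 41 loci were KLA-only (50.0% and 41.5%), beside 19.6% of all. In Balb/cJ cells, where 42.8% of all AP-1 loci were KLA-only, 13 of 18 loci in the Ccl2-Ccl7 windows were KLA-only (72.2%, 46.5 to 90.3) and 23 of 50 in the other windows (46.0%, 31.8 to 60.7). The intervals of the 2 gene groups overlapped in both strains.

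The genes within the second cluster differed more from each other than the clusters did. Around Ccl5 13 of 14 AP-1 loci of C57Bl/6EiJ cells were KLA-only (92.9%, 66.1 to 99.8), and around Ccl6 3 of 15 (20.0%, 4.33 to 48.1), with intervals that did not overlap. Ccl9, next to Ccl6, had 4 of 11 (36.4%), Ccl4 7 of 15 (46.7%) and Ccl3 11 of 21 (52.4%). In the first cluster Ccl2 had 8 of 14 (57.1%) and Ccl7 7 of 10 (70.0%), and Ccl12 2 of 5. Thus Ccl6 already carried 9 loci bound by ATF3, cJun and JunD together in Veh, Ccl9 6, Ccl2 and Ccl3 4 each, Ccl4 3, Ccl7 1 and Ccl5 and Ccl12 none. The 9 of Ccl6 were 75.0% of its 12 resting AP-1 loci, beside 34.9% of all such loci. After KLA the count of loci with all 6 AP-1 antibodies was highest at Ccl5, with 6, compared with 4 each at Ccl3 and Ccl6, 3 each at Ccl2 and Ccl4, 2 at Ccl9, 1 at Ccl7 and none at Ccl12. The 6 of Ccl5 were 42.9% of its 14 AP-1 loci after KLA, beside 13.9% of all. In Balb/cJ cells the Ccl6 share was again 3 of 15, but the Ccl5 share was 8 of 14 (57.1%, 28.9 to 82.3).

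**Figure D2:**
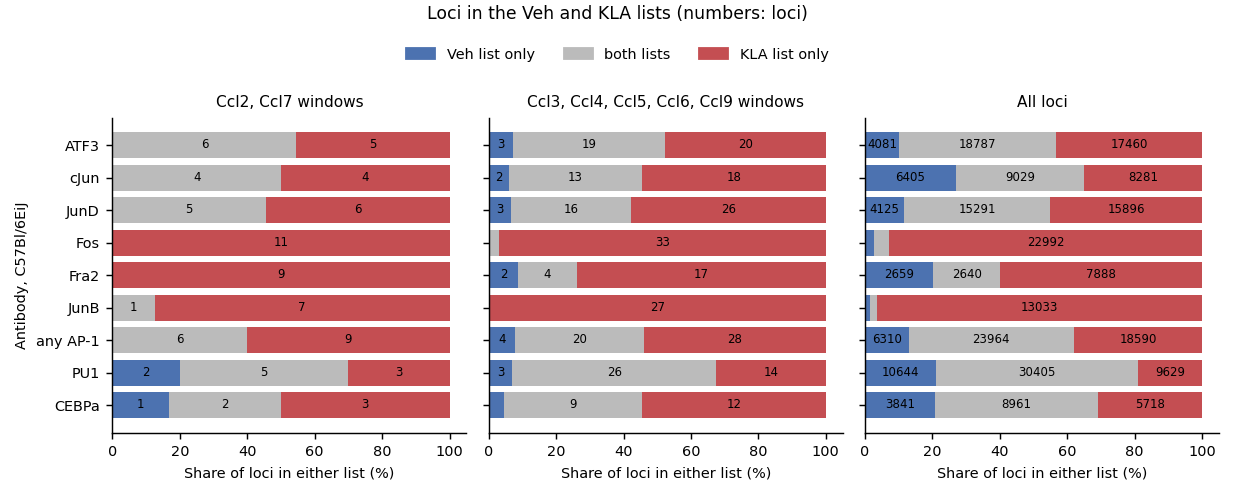
Share of loci (%, x axis) found in the Veh list only, in both lists or in the KLA list only, for each antibody in C57Bl/6EiJ cells and for any of the 6 AP-1 antibodies together, in the 2 gene groups and over all loci; the printed numbers count loci. With any AP-1 antibody 9 of 15 loci in the Ccl2-Ccl7 windows and 28 of 52 in the other windows were in the KLA list only.

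By antibody, ATF3 had 5 of 11 loci after KLA only in the Ccl2-Ccl7 windows and 20 of 42 in the Ccl3-Ccl4-Ccl5-Ccl6-Ccl9 windows, beside 43.3% of all ATF3 loci. JunD had 6 of 11 and 26 of 45, beside 45% of all. The shares of both antibodies lay near those of all loci in the lists as deposited, but above them at equal list length. ATF3 then had 5 of 11 and 14 of 36 loci after KLA only (45.5% and 38.9%), beside 24.8% of all. JunD had 5 of 10 and 18 of 37 (50.0% and 48.6%), beside 27.9%. For cJun 4 of 8 and 18 of 33 loci were KLA-only, beside 34.9% of all, and the interval of the larger group, 36.4 to 71.9%, began just above that value. Of loci bound by ATF3 with both treatments, 3 of 6 in the Ccl2-Ccl7 windows and 6 of 19 in the others were higher after KLA, beside 24.5% of all such loci, and 0 and 3 were lower, beside 8.19%. For JunD 3 of 5 and 4 of 16 were higher (21.9% of all) and 0 and 2 lower (10.8%). For cJun 0 of 4 and 3 of 13 were higher (4.84%) and 1 was lower (4.06%). At equal list length ATF3 was higher at 3 of 5 and 4 of 17 loci (13.1% of all) and lower at 1 and 5 (18.1%), and JunD higher at 3 of 5 and 4 of 13 (13.8%) and lower at 0 and 1 (24.1%). Most loci of the activation-induced members were KLA-only: Fos at 11 and 33 loci (92.7% of all Fos loci were KLA-only), Fra2 at 9 and 17 (59.8%) and JunB at 7 and 27 (96.6%). Fra2 also had 2 loci in Veh only and 4 in both treatments in the Ccl3-Ccl4-Ccl5-Ccl6-Ccl9 windows. Since the Veh lists of these 3 antigens are short, their KLA-only counts say little about the chemokine genes themselves.

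In Balb/cJ cells ATF3 had 6 of 11 loci after KLA only in the Ccl2-Ccl7 windows and 20 of 36 in the Ccl3-Ccl4-Ccl5-Ccl6-Ccl9 windows, beside 51.4% of all. For cJun these were 1 of 5 and 13 of 24 (34.6%), and for JunD 9 of 14 and 24 of 48 (35.4%), with an interval of 35.1 to 87.2% for JunD in the Ccl2-Ccl7 windows. At equal list length the ATF3 shares were 44.4% and 46.7%, above the 26.7% of all. Those of JunD were 61.5% and 46.7%, beside 28.8%, and those of cJun 20.0% and 54.2%, beside 33.3%. At loci bound with both treatments ATF3 was higher after KLA at 3 of 5 and 7 of 14 (23.2% of all) and lower at 0 and 2 (4.36%). JunD was higher at 1 of 5 and 11 of 22 (13.9%) and lower at none (11.3%), and cJun was higher at 1 of 4 and 2 of 7 (6.65%) and lower at none (4.52%). At equal list length ATF3 was higher at 1 of 5 and 5 of 12 (9.47%) and lower at 0 and 2 (14.1%), and JunD was higher at 1 of 5 and 9 of 22 (11.2%) and lower at 0 and 2 (15.9%).

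Around Ccl2, 3 upstream loci were present in more than 20 lists each. The most widely shared, at -12754 bp (26 lists, sequence above), ranked at the 97.3 percentile with ATF3 in Veh and 99.9 after KLA (200 and 418 tags), with intervals of 95.3 to 98.6 and 99.7 to 100, and was thus higher. JunD there was higher as well, 93.6 and 99.8, and cJun stood at 93.5 and 99.1 with overlapping intervals. PU1 (95.7 and 96.8) and CEBPa (74.0 and 83.1) bound the same locus with both treatments, and PPARg at 78.6. It was also the single JunB peak of Veh cells in all the windows. Thus this was a constitutive locus near the top of the ATF3 and JunD lists in either state.

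The locus at -18951 bp from the Ccl2 start (82016391-82016849, in an intron of the long noncoding RNA Gm31522) differed between the treatments in both strains. ATF3 ranked at 73.3 in Veh and 99.6 after KLA in C57Bl/6EiJ cells, and at 76.5 and 99.5 in Balb/cJ cells. JunD ranked at 58.9 and 99.7, and at 75.5 and 99.2. Each of these 4 pairs of intervals lay apart, as did cJun in Balb/cJ cells at 54.5 and 98.9, whereas cJun in C57Bl/6EiJ cells, at 70.4 and 93.3, did not. After KLA Fos, Fra2 and JunB ranked at 95.4, 95.8 and 95.7. In contrast to the -12754 bp locus no PPARg peak was found here, and within this locus PU1 was present in Veh alone, at 39.2. However, the locus at -19341 bp (82016096-82016364) ends just short of this one and held PU1 with both treatments, at 10.9 and 93.5. PU1 binding next to this site was thus listed after KLA as well. The third locus, at -11613 bp (24 lists), had no called difference, with ATF3 at 91.2 and 86.8 and JunD at 86.6 and 93.4, although at equal list length ATF3 was lower after KLA (91.2 and 79).

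Closer to the gene, the locus that covers the Ccl2 start (-178 bp, 21 lists) had no called difference. ATF3 was at 59.4 and 77.1, JunD at 79.8 and 75.3 and cJun at 86.4 and 70.4 in Veh and KLA, all with overlapping intervals, and PU1 was found in Veh only, at 82.1. A locus at -2494 bp, named after its values were seen, differed more: ATF3 3.03 and 78.1, JunD 2.91 and 85.3, and PU1 70.2 and 91.9, all higher after KLA. At -19341 bp, in the locus that adjoins the one at -18951 bp, PU1 was at 10.9 and 93.5. This locus lies near the edge of the window and was likewise named after its values were seen. Ccl7 had no AP-1 peak at its start in any Veh list. After KLA the locus at -181 bp from the Ccl7 start was bound weakly, by JunD at 68.1, ATF3 at 63.1, cJun at 32.6, Fos at 27.1, JunB at 16.3 and PU1 at 45.0, and in Balb/cJ cells by Fos only, at 64.8. The start of Ccl12 (-160 bp, 18 lists) was higher with ATF3 after KLA, 35 in Veh and 91.8 after KLA in C57Bl/6EiJ cells, and in Balb/cJ cells it was absent from the ATF3 Veh list and at 78.0 after KLA. In C57Bl/6EiJ cells cJun ranked there at 30.1 and 80.9 with intervals that just overlapped, and JunD at 75.6 after KLA only. In Balb/cJ cells cJun was found in Veh only, at 15.9, and JunD with both treatments, at 50.7 and 39.7.

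**Figure D3:**
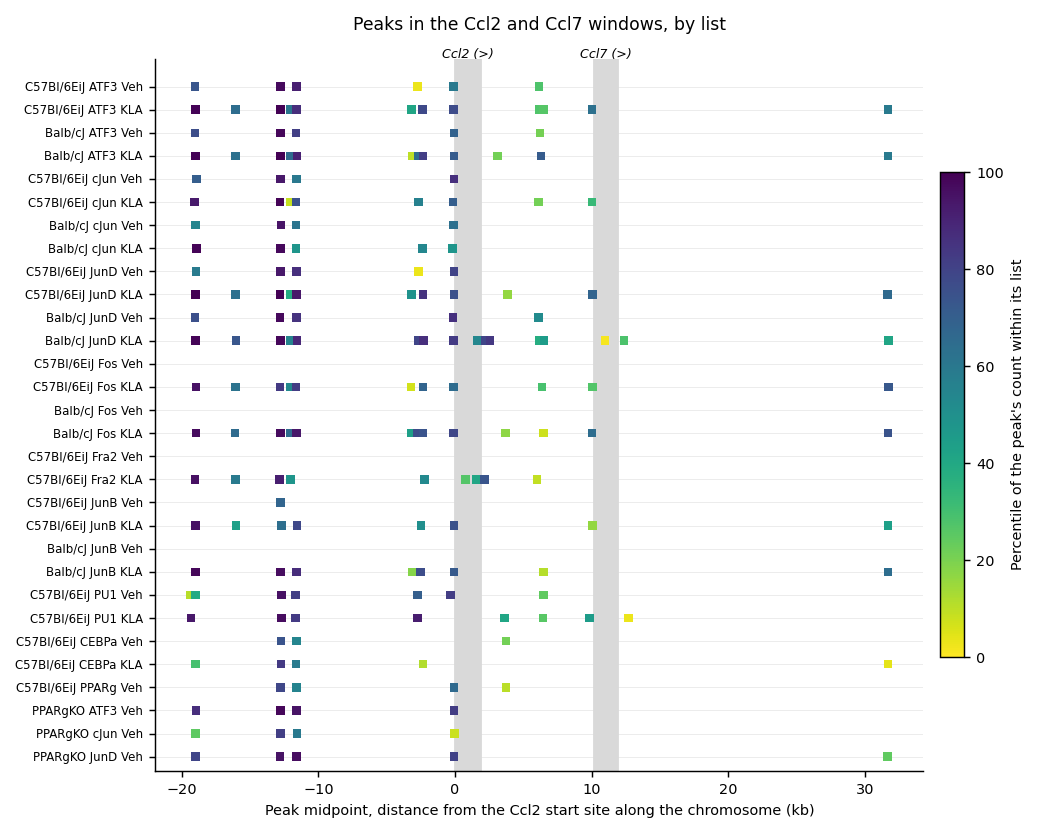
Peaks in the Ccl2 and Ccl7 windows by list (rows), placed by distance from the Ccl2 start (kb, x axis), with colour giving the percentile of the count within the list and grey bars the gene bodies. The loci at -18951 and -12754 bp are present with ATF3, cJun and JunD in both strains and treatments, and the region over Ccl7 is nearly empty in the Veh lists.

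At Ccl5 AP-1 binding in C57Bl/6EiJ cells was largely listed after KLA only. The locus over its start (-91 bp, 12 lists) had no peak in any Veh list and ranked after KLA at 90.7 with ATF3, 92.8 with cJun, 87.8 with JunD, 87.5 with Fos, 81.0 with JunB, 72.8 with Fra2 and 95.8 with PU1 in C57Bl/6EiJ cells. In Balb/cJ cells it ranked at 86.0 with ATF3, 75.8 with cJun, 94.4 with JunD, 93.2 with Fos and 85.0 with JunB. A locus at -4416 bp, chosen after its values were seen, was still stronger after KLA in C57Bl/6EiJ cells. JunB was at 96.8, JunD at 96.3, ATF3 at 95, cJun at 93.7 and Fos at 93.2, and these cells had no AP-1 peak there in Veh. In Balb/cJ cells JunD was listed there in Veh, at 23.8. The most widely shared Ccl5 locus, at -10646 bp (16 lists), carried PU1 in Veh at 25.7 and after KLA at 73.7, which was higher, and AP-1 in C57Bl/6EiJ cells only after KLA, with Fos at 88.7, JunD at 82.5 and ATF3 at 80.9. Thus PU.1 was already present at this locus in resting C57Bl/6EiJ cells, in which no AP-1 peak was listed. In resting Balb/cJ cells, where PU1 was not profiled, JunD had a peak there at 33.1.

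Ccl6 showed the opposite pattern. Its locus at -11726 bp (26 lists, sequence above) was among the strongest of either state: ATF3 was at 99.8 in Veh (299 tags) and 99 after KLA, JunD at 99.4 and 97.9 and cJun at 95.1 and 94.0, all with overlapping intervals. At equal list length ATF3 was lower after KLA (99.8 and 98.4). CEBPa was at 90.5 and 95.2 and PPARg at 85.2, and PU1 was higher after KLA (66.3 and 85.2). It was also the strongest Fra2 peak of Veh cells in these windows, at 87.0. The locus over the Ccl6 start (centre at 109 bp inside the transcript, 13 lists) lost ATF3 rank in C57Bl/6EiJ cells, at 5.45 after KLA compared with 73.3, and at equal list length the weak KLA peak was no longer listed. In these cells cJun was found in Veh only, at 51.6, and JunD was at 57.5 and 27.0 with intervals that overlapped, whereas in Balb/cJ cells cJun was found after KLA only, at 13. The Ccl6 start ranked higher with PPARg, at 96.4, and PU1, at 91.3 and 84.9, than with AP-1. The adjoining locus at -555 bp, named after its values were seen, also lost ATF3 rank (88.4 and 45.3), JunD rank (68.0 and 31.3) and CEBPa rank (48.6 and 5.64), and its cJun peak, at 91.9, was found in Veh only. At equal list length the JunD and CEBPa peaks of KLA cells there were no longer listed. In contrast, the locus at -4880 bp, chosen in the same way, was higher after KLA with ATF3 (48.6 and 87.4), JunD (51.4 and 94.9) and PU1 (16.5 and 81.6).

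Ccl9 is transcribed in the same direction next to Ccl6. Its intron locus (1296 bp inside, 23 lists) was higher after KLA with cJun (21.4 and 82.0). ATF3 (72.7 and 87.0) was called higher in the lists as deposited but not with both lists at equal length (72.7 and 79.4), and JunD (70.9 and 83.1) and CEBPa (90.1 and 87.6) had overlapping intervals. The start of Ccl9 (169 bp, 11 lists) resembled the Ccl6 start in its strong PPARg peak, at 94.3, but here JunD was higher after KLA, 9.23 and 73.6, and so was PU1, 46.5 and 92.9. Upstream, a locus at -2355 bp, picked after its values were seen, had no AP-1 peak in Veh and ranked after KLA at 98.3 with Fos, 96.1 with JunD, 95.5 with JunB and 91.0 with ATF3, although PPARg bound it in Veh at 75.0.

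The Ccl3 start (-244 bp, 23 lists) was constitutive: ATF3 ranked at 94.2 and 96.6, JunD at 92.9 and 96.5, cJun at 83.3 and 86.5 and CEBPa at 89.7 and 96.0 in C57Bl/6EiJ cells, without a called difference, while JunD in Balb/cJ cells was higher, 94.9 and 99.1, but not at equal list length (94.9 and 99). A downstream locus, 8961 bp from the start (25 lists), was similar, with ATF3 at 94.6 and 93.4 and JunD at 91.0 and 92.5. The Ccl4 start (-133 bp, 21 lists) instead gained rank with every antigen that had peaks in both treatments. ATF3 ranked at 85.7 and 98.5, cJun at 74.0 and 98.6, JunD at 77.8 and 98.8 and PU1 at 85.1 and 98.4, and in Balb/cJ cells ATF3, cJun and JunD rose to 98.6, 98.7 and 99.6 from 89.0, 81.9 and 91.3. All 7 pairs of intervals lay apart. With ATF3 and JunD the starts of Ccl3 and Ccl4, divergent neighbours, thus lay closer to each other after KLA than in Veh, and with cJun they did not (86.5 and 98.6 after KLA).

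Downstream of Ccl4, at 3279 bp from its start (83665661-83666065, 11 lists), lay a locus bound only after KLA. Fra2 ranked there at 99.7, and JunD at 98.9 in C57Bl/6EiJ and 100 in Balb/cJ cells, whereas ATF3 was at 87.4, Fos at 62.1 and JunB at 68.5. The order of the antigens thus differed from the Ccl4 start, where Fra2 had no peak. The central 200 bases held none of the words searched. A locus inside the Ccl4 intron (1242 bp), named after its values were seen, went the other way for most antigens: ATF3 was at 94.2 and 76.5, cJun at 93.5 and 12.9, JunD at 88.9 and 73.1 and CEBPa at 83.8 and 62.5, all lower after KLA, while Fra2 rose from 35.9 to 96.6. In Balb/cJ cells ATF3 fell there from 94.1 to 39.1 (at equal list length its KLA peak was no longer listed), and JunD, at 95.5 and 93.4, had overlapping intervals.

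**Figure D4:**
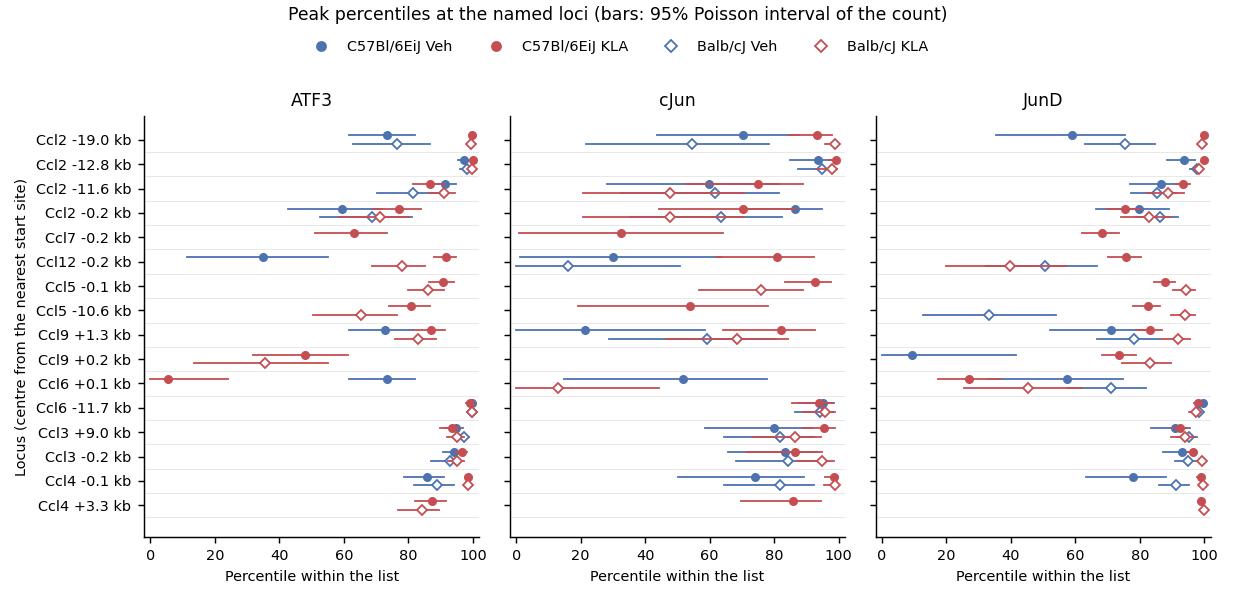
Percentile within the list (x axis) at the 16 named loci for ATF3, cJun and JunD, in Veh (blue) and KLA (red) of C57Bl/6EiJ (filled circles) and Balb/cJ (open diamonds); bars are the 95% Poisson interval of the count placed in the same list, and a missing point means no peak. The intervals lie apart at the Ccl2 locus at -18951 bp with ATF3 and JunD and at the Ccl4 start with all 3 antigens, and the ATF3 point of the Ccl6 start drops from 73.3 to 5.45.

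The other macrophage factors were compared with AP-1 at the same loci. PU1 in Veh was found at 6 of 6 resting AP-1 loci of the Ccl2-Ccl7 windows and 17 of 24 of the other windows (57.4% of all resting AP-1 loci), but at 0 of 9 and 8 of 28 of the KLA-only loci (22% of all). After KLA, PU1 was at 2 of 9 and 15 of 28 KLA-only loci, beside 36.5% of all, with an interval of 33.9 to 72.5% for the larger group. CEBPa in Veh was at 2 of 6 and 10 of 24 resting loci (31.7% of all) and at 1 of 9 and 0 of 28 KLA-only loci (4.82%), and after KLA at 1 of 9 and 10 of 28 of the latter (15.9%). PPARg bound 3 of 6 and 15 of 24 resting loci (59.1%) and 1 of 9 and 4 of 28 KLA-only loci (17.5%).

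PU1 gained 3 of 10 loci after KLA in the Ccl2-Ccl7 windows and 14 of 43 in the other windows, beside 19% of all PU1 loci. Where PU1 was bound with both treatments, a higher rank after KLA was called at 14 of 26 loci in the Ccl3-Ccl4-Ccl5-Ccl6-Ccl9 windows, beside 18.3% of all PU1 loci, and 1 was lower, beside 19.9%. In the Ccl2-Ccl7 windows 2 of 5 were higher and none lower. At equal list length PU1 was higher at 11 of 23 loci of the larger group and lower at 1, each beside 19.3% of all. The weak Veh peaks at -6251 bp of Ccl5 and at -4943 and -3629 bp of Ccl4 were then no longer listed. The 14 of the lists as deposited included 4 at Ccl5, for example at -10646 bp (25.7 and 73.7), as well as the starts of Ccl4 and Ccl9. The PU1 Veh list is one of the 2 with counts on a larger scale, and whether that has a part in these ranks was not tested. CEBPa gained 12 of 22 loci after KLA in the Ccl3-Ccl4-Ccl5-Ccl6-Ccl9 windows, beside 30.9% of all CEBPa loci, with an interval of 32.2 to 75.6%, and the Ccl5 window held 5 CEBPa peaks after KLA and none in Veh. Of the 9 CEBPa loci bound with both treatments there 1 was higher (12.2% of all) and 2 lower (10.7%). At equal list length 1 of 8 was higher (9.74%) and 1 lower (14.5%).

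**Figure D5:**
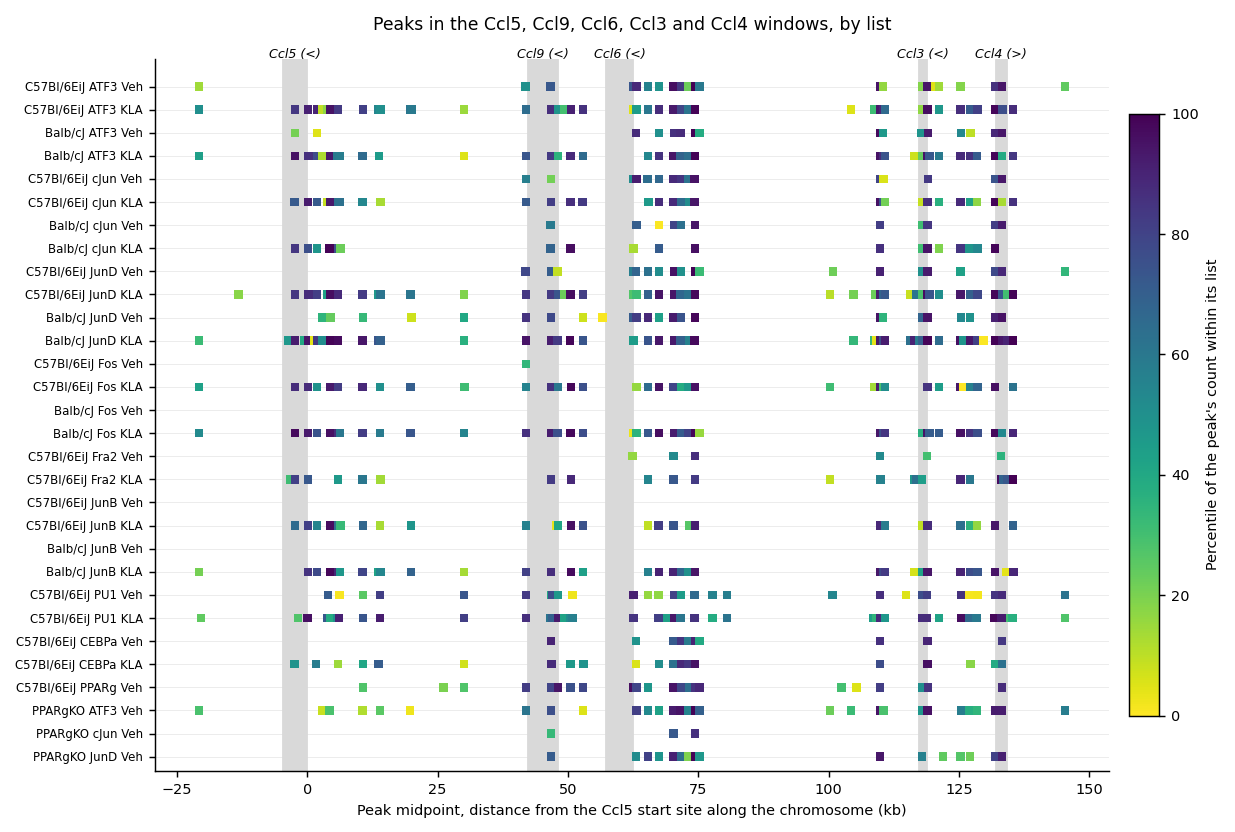
Peaks from Ccl5 to Ccl4 by list (rows), placed by distance from the Ccl5 start (kb, x axis), with colour giving the percentile of the count within the list and grey bars the gene bodies. The Ccl5 region fills with the KLA lists, whereas the Ccl6 locus at -11726 bp holds a peak in 26 of the 30 lists.

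The 2 strains were compared at equal treatment. After KLA and over ATF3, cJun, JunD, Fos and JunB together, 67.8% (54.4 to 79.4) of the loci in either list were shared in the Ccl2-Ccl7 windows and 73.5% (66.7 to 79.5) in the Ccl3-Ccl4-Ccl5-Ccl6-Ccl9 windows, beside 52.9% of all loci. In Veh and over ATF3, cJun and JunD, 81.2% (54.4 to 96.0) and 55.1% (42.6 to 67.1) were shared, beside 46.6%. By antigen in Veh, Balb/cJ cells held 5 of 6 and 13 of 22 C57Bl/6EiJ loci of ATF3 (63.6% of all), 4 of 4 and 10 of 15 of cJun (49%) and 4 of 5 and 15 of 19 of JunD (76.5%). In the pooled shares a locus counts once for each antibody that binds it, so these intervals are too narrow. By antigen after KLA, Balb/cJ cells held 10 of 11 C57Bl/6EiJ loci of ATF3 in the first group and 32 of 39 in the second (76.9% of all), 5 of 8 and 19 of 31 of cJun (47%), 8 of 11 and 37 of 42 of JunD (74.6%), 11 of 11 and 31 of 34 of Fos (89.8%) and 6 of 8 and 25 of 27 of JunB (79.7%).

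Where both strains had a peak after KLA, the rank with JunD was higher in Balb/cJ cells at 12 of 37 loci of the Ccl3-Ccl4-Ccl5-Ccl6-Ccl9 windows (13% of all) and lower at none (4.69%). Fos was higher at 11 of 31 (24.6%) and JunB at 4 of 25 (9.75%), but the Balb/cJ lists of these antigens are longer (40459 and 24365 peaks for Fos, 21667 and 13375 for JunB), and all shared loci shifted by medians of 12.6 and 7.2 points. With both lists cut to equal length and ranked again, Fos was higher at 1 of 30 and JunB at none of 25 (4.76% and 3.11% of all), whereas JunD was still higher at 12 of 37 (9.96%). The JunD KLA list of C57Bl/6EiJ has counts on a larger scale, which narrows its Poisson bounds, and the part of that in the JunD calls was not tested. Of the JunD loci 4 each were nearest to Ccl3 and Ccl4, 3 to Ccl5 and 1 to Ccl9. Near the 3′ end of Ccl4, 2080 bp from its start, JunD ranked at 30.3 in C57Bl/6EiJ and 90.4 in Balb/cJ cells. ATF3 showed no such direction, with 2 of 32 loci higher (5.22%) and 4 lower (4.64%). In the Ccl2-Ccl7 windows JunD was higher at none of 8 and lower at 1, and at the Ccl12 start ATF3 (91.8 and 78.0) and JunD (75.6 and 39.7) were both lower in Balb/cJ cells. The strains also differed at Ccl5 in Veh. With JunD, Balb/cJ cells had 4 Ccl5 loci and C57Bl/6EiJ cells none, at percentiles of 7.58, 23.8, 33.1 and 34.9 in Balb/cJ. The Balb/cJ JunD Veh list is longer (28652 compared with 19653 peaks), and 41.1% of all JunD loci of either Veh list were found in Balb/cJ only.

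Binding in resting PPARgKO cells was compared with that in resting C57Bl/6EiJ cells. For ATF3 the knockout list held 4 of 6 wild-type loci in the Ccl2-Ccl7 windows and 19 of 22 in the Ccl3-Ccl4-Ccl5-Ccl6-Ccl9 windows, beside 79.3% of all. For JunD it held 4 of 5 and 13 of 19, beside 54.4%. For cJun it held 4 of 4 in the Ccl2-Ccl7 windows (100%, 39.8 to 100) but 3 of 15 in the others (20.0%, 4.33 to 48.1), beside 22.1% of all cJun loci, in a list of 4290 peaks compared with 15548 in the wild type. The intervals of the 2 gene groups overlapped. With both cJun lists cut to equal length, the larger group had 2 loci in both lists, 6 in the wild type only and 1 in the knockout only. The Ccl2-Ccl7 windows had 2 in both lists, 0 in the wild type only and 2 in the knockout only. Among all cJun loci 2266 were in both lists, 2009 in the wild type only and 2022 in the knockout only. With the peaks below the pooled median count left out, no cJun locus of either group was kept, and the 4 cJun peaks of Ccl2 in the knockout had only 13 to 26 tags. The whole knockout cJun list had a median of 18 tags, and counts are not comparable between lists. This cut therefore cannot show whether cJun was kept.

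By gene, the cJun peaks of Ccl2 at -18951, -12754, -11613 and -178 bp were all listed in the knockout, at percentiles of 24.8, 81.4, 59.5 and 8.1. At Ccl6 3 of 10 were listed, at Ccl9 1 of 6, and at Ccl3 and Ccl4 none, although the cJun peak of the Ccl3 start had ranked at 83.3 in the wild type. Of the cJun loci with a PPARg peak, 3 of 3 in the first group and 3 of 12 in the second were kept (28.7% of all), and of those without it 1 of 1 and 0 of 3 (8.61%). For ATF3 the second group kept 13 of 14 loci with a PPARg peak (85.5%) and 6 of 8 without (69.2%), and for JunD 10 of 14 (61.7%) and 3 of 5 (36.8%). At the PPARg-bound start of Ccl3, ATF3 remained at 95.4 in the knockout while no cJun and no JunD peak was listed. The Ccl6 start, with PPARg at 96.4, had no ATF3, cJun or JunD peak in the knockout, although ATF3 ranked there at 73.3 in the wild type.

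Some ranks were called higher in the knockout. ATF3 at the Ccl2 start was at 82.4 compared with 59.4 and at the Ccl6 locus at -9066 bp 94.6 compared with 83.9, and JunD at the Ccl2 locus at -11613 bp was at 96.7 compared with 86.6. With both lists cut to the length of the shorter and ranked again, the JunD call remained and both ATF3 calls were lost (59.4 and 78.5 at the Ccl2 start). As deposited, all ATF3 loci in both lists shifted by a median of 5.5 points and all JunD loci by 5.7. A higher rank was called at 3.9% of all ATF3 loci in both lists and 3.31% of JunD loci. No chemokine locus was lower in the knockout, beside 0.204% of all for ATF3, 0.597% for JunD and 5.31% for cJun. Of the ATF3 loci of either list, 0 of 6 in the first group and 10 of 32 in the second were found in the knockout only, a share near the 30.7% of all loci. For JunD these were 1 of 6 and 3 of 22 (31.1%), and for cJun none (5.38%). Of the 10 ATF3 loci, 5 were at Ccl5, with 6 weak ATF3 peaks of 13 to 21 tags there in all. No JunD or cJun peak was listed at Ccl5 in the knockout.

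The words printed above were counted in the central 200 bases of every locus on both strands. The TRE was found in 13 of the 99 chemokine loci (13.1%, 7.18 to 21.4) and in 18% of all loci, the CRE in 0 (up to 3.66%) and 0.987%, the PU.1 word in 21 (21.2%) and 22.7%, the C/EBP word in 20 (20.2%) and 14.2%, and the NF-kB word in 12 (12.1%) and 12.6%. An interferon response word (GAAA repeated after 2 bases of any kind) was in 7 (7.07%) and 3.72%, and an ATF and C/EBP composite (TGATGCAA) in 3 (3.03%) and 1.79%. The share of all loci lay within the interval of each of these words. The PU.1 word was in 18 of 71 loci of the second group and 2 of 20 of the first.

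The same words were counted at resting and KLA-only AP-1 loci of C57Bl/6EiJ cells. The NF-kB word was in 1 of 33 resting chemokine loci (3.03%, 0.0767 to 15.8), beside 11.4% of all resting AP-1 loci, and in 9 of 39 KLA-only loci (23.1%, 11.1 to 39.3), beside 17.7%. In the Ccl3-Ccl4-Ccl5-Ccl6-Ccl9 windows it was in 0 of 24 and 7 of 28, and 4 of the 7 were among the 13 KLA-only loci of Ccl5, the start included. The TRE was in 5 of 33 resting and 7 of 39 KLA-only loci, beside 24.2% and 29.1%. The PU.1 word was in 11 of 33 and 7 of 39, beside 21% and 15.8%, and the interferon response word in 1 of 33 and 5 of 39, beside 3.07% and 5.24%. The TRE variant TGAGTAA, one of the words added after reading the sequences, was in 6 of 33 resting loci (18.2%, 6.98 to 35.5; 5.11% of all) and 1 of 39 KLA-only loci (6.97% of all), and the CRE variant TGATGTCA in 2 of 99 loci (3.4% of all). The resting loci with the TRE variant include the printed stretches of Ccl2 at -178 bp, Ccl12 at -160 bp and Ccl4 at -133 bp. Both loci with the CRE variant are printed stretches. The variant shares were thus partly set by the choice of word and test nothing. The intervals of resting and KLA-only loci overlapped for each word, and a match does not show that a factor binds it.

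The other chemokine and receptor genes were described in the same way from a fixed list of 25, of which 24 were found as protein-coding genes and 23 had an AP-1 locus in C57Bl/6EiJ cells. Their median was 1.065 AP-1 loci per 10 kb, compared with 3.225 for the 8 genes above, but Cxcl1 (4.53), Cxcl2 (2.85), Ccrl2 (2.79) and Cxcl16 (2.39) also lay above the 99th percentile of all genes. After KLA 18 of the 23 had more AP-1 loci than in Veh, 2 fewer and 3 the same number, whereas all 8 Ccl genes above had more, beside 53.1% of all protein-coding genes with more and 21% with fewer. Neighbouring windows share loci, among the 8 genes and also between the sets, as with Ccl12 and Ccl8. These genes are therefore not independent of each other. Cxcl1, a neutrophil attractant, had 8 loci in Veh and 19 after KLA, and Cxcl2 had 5 and 12. Ccrl2, an atypical receptor, had 6 and 11, and Cxcl10, an interferon-induced T cell attractant, 5 and 7. Receptors of these chemokines differed little: Ccr2 had 3 and 2 loci and Ccr1 4 and 5.

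The window edges decided some members. A locus in 22 lists, with a best percentile of 95, lay 220 bp outside the Ccl2 window, and the nearest inside lay at 655 bp with 2 lists. At the other end of the Ccl7 window the nearest locus inside, in 10 lists, lay 286 bp from the edge and the nearest outside, in 1 list, at 3737 bp. Beyond the Ccl6 window a locus in 14 lists, with a best percentile of 83.7, lay 2636 bp outside, and beyond the Ccl12 window one in 11 lists lay 777 bp outside.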

How the data were processed

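ChIP-seq peak lists of TGEMs were taken as deposited, 1 for each of 30 antigen, strain, genotype and treatment conditions; the 4 input samples were not analysed here. Per the study's methods, reads had been aligned by Bowtie2 (mm10, or for Balb/cJ a custom genome whose coordinates were then shifted to mm10), HOMER had called the peaks relative to input, and the authors had kept those below an IDR threshold over replicate experiments. Each list gives, as deposited by the authors, a whole-number tag count per peak and a score between 540 and 1000 that is capped at 1000; counts are not scaled to depth, and read totals are not given in the sources used here.

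Loci were built by merging peaks from the 30 lists wherever 1 bp or more was in common (median width 360 bp). Gene windows were GENCODE mm10 gene bodies with 20 kb on each side. A peak's percentile was its rank by count within its list, with ties counted at their middle, and a locus took its strongest peak. Poisson bounds and Clopper-Pearson intervals are exact at 95%. The ranking and calling steps were tested on simulated data: of 5000 sites, 4-fold increases were found in 100%, decreases in 83.9%, and 1.16% of unchanged sites were called. The simulated lists had the same count scale, similar lengths and Poisson noise only. The deposited lists differ in scale and length and combine replicates, so these rates need not hold for them. Named loci were, for each gene, the locus within 500 bp of its start and the one in the most lists, and in each gene group the 3 loci with the highest percentile; others are marked as chosen after their values were seen. The genes, lists and comparisons were chosen with earlier results of these data known. Alternatives were the flank, peak strength, joining rule, equal list length (also for the ranks, added after seeing the data), rank by score and motif window. Sequences came from RefSeq's GRCm38. Python 3.11.15, numpy 2.4.6, pandas 2.3.3, scipy 1.17.1 and matplotlib 3.10.9 were used.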

Additional observations from a re-analysis of the deposited data

How the results depend on the processing

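Of 156 alternative values of the main counts and shares, 130 stayed within the limits set for them and 26 moved; of the others 810 stayed, 152 moved and 10 reversed. With a 10 kb flank the Ccl2-Ccl7 windows held 13 loci instead of 20, 3 kept after KLA instead of 6, median percentiles of 43.7 (Veh) and 49.9 (KLA) instead of 71.8 and 64.0, and 46.9% instead of 67.8% shared between strains after KLA, since the strong upstream Ccl2 loci lie beyond 10 kb; 1 instead of 4 loci of the other windows was lost. With 50 kb the Ccl2-Ccl7 windows held 40 loci, 16 gained and 12 kept. With only the strongest 50% of each list the Ccl2-Ccl7 median after KLA was 50.0, its knockout shares kept were 100% for ATF3 and JunD, and 12 loci of the other windows were kept after KLA. With counts at or above the pooled median, the Ccl2-Ccl7 median in Veh was 57.8 and its knockout shares kept were 100% for ATF3 and JunD but 0.0% for cJun; in the other windows 13 loci were kept and 1 lost after KLA, 67.7% (Veh) and 65.6% (KLA) were shared between strains, and the knockout kept 57.1% for ATF3 and 0.0% for cJun. The pooled median is taken over lists of unlike count scale, so it leaves out more peaks of lists with low counts, such as cJun in the knockout. With lists cut to equal length 17 instead of 28 loci of the other windows were KLA-only. When the ranks were also taken in lists of equal length, an alternative chosen after seeing the data, 52 of the calls of higher and 7 of lower after KLA remained, 9 of higher had overlapping intervals, and 3 of higher and 4 of lower had no peak in both lists. Between strains 18 calls of higher in Balb/cJ remained and 17 did not, and in the knockout 1 remained and 2 did not. In the central 100 bases the PU.1 word was in 11.3% of those loci instead of 25.4%.

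Ranked by the deposited score instead of the count, 12 instead of 23 pairs of named locus and antigen (ATF3, cJun and JunD in C57Bl/6EiJ) were higher after KLA. Differences reversed to -4.73 for ATF3 at the Ccl2 loci at -18951 and -12754 bp, the Ccl12 start, the Ccl9 intron and the Ccl4 start, to -7.93 for JunD at the Ccl2 locus at -12754 bp and the Ccl4 start, and in Balb/cJ to -0.776 for ATF3 at both of these Ccl2 loci and the Ccl4 start. The score cannot rank them: 59.0% of ATF3 and 51.9% of JunD peaks in Veh, and 68.4% and 67.8% after KLA, are at its cap. No paired analysis was possible because each condition has 1 list of combined replicates. Leaving out a replicate was likewise not possible, and read depth is unknown, so a missing peak does not show absent binding.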
